A study of Mus musculus with 2 samples.

Results

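Atoh1-positive progenitors with low mitotic transcripts were cells of the early postnatal cerebellum that held the transcript of Atoh1, the transcription factor that defines the granule cell lineage, with almost no transcript of the division genes Mki67 and Top2a. The members were cell barcodes in which no fewer than 500 genes were detected and mitochondrial transcripts were no more than 10%. They had at least 1 unique molecular identifier (UMI, a count of captured RNA molecules) of Atoh1, at most 1 UMI of Mki67 and Top2a together, at most 2 of the astroglial gene Slc1a3 and 0 of the inhibitory gene Gad2. This rule gave 294 members among 16547 kept barcodes, 138 of 8353 for control and 156 of 8194 for mutant mice. Since 5 genes chose the members, the levels of those genes are given only as a description.

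Lobules III-IV of the cerebellum were dissected from mice at postnatal day 1 and profiled by droplet-based single-cell RNA sequencing of transcript 3' ends. The control library came from Cxcr4+/+ mice and the mutant library from Cxcr4+/1013 mice, and both carried the strain label B6.129S2-Cxcr4tm1.1Bala. The design text describes the controls as littermates, no treatment is named, and the extraction protocol writes Cxcr4+/- where the genotype label has Cxcr4+/1013. There was 1 library per genotype, the sources used here do not give the number of animals behind each, and every comparison below is between these 2 libraries, with no test between genotypes.

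Granule cell progenitors arise in the rhombic lip, cover the cerebellar surface as the external granule layer, and divide there under Sonic hedgehog from Purkinje cells. CXCL12 from the meninges, through its receptor CXCR4, keeps dividing progenitors near that surface, and the 1013 allele encodes a CXCR4 with a truncated C-terminal tail. On leaving the cycle, the cells lose Atoh1, switch on Neurod1 and Cntn2, and pass through a premigratory stage before they move inward. Counts of transcript 3' ends per gene do not read the 1013 allele, so that the genotype labels could not be checked from them.

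The Atoh1 gene (ENSMUSG00000073043) lies at chr6:64729125-64731245 on the plus strand of GRCm38, the mouse build also called mm10. Barhl1, a homeobox factor of the same lineage, lies at chr2:28907679-28916668 on the minus strand, and Neurod1, a basic helix-loop-helix factor of committed neurons, at chr2:79452521-79456751. Atoh1 and Neurod1 proteins bind the E-box, CANNTG, which reads the same on both strands. The 250 bases before the annotated start of these genes, from RefSeq on GRCm38.p6, are shown 5′ to 3′ on the gene's strand. The members were chosen on Atoh1, and levels of Neurod1 and Barhl1 in them are given below. Capitals mark each CANNTG.
Atoh1, chr6:64728875-64729124, plus strand: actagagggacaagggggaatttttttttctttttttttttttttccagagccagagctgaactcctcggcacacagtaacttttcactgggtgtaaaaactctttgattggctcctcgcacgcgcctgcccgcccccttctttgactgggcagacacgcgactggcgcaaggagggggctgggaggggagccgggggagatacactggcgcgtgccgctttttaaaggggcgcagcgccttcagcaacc
Barhl1, chr2:28916669-28916918, minus strand: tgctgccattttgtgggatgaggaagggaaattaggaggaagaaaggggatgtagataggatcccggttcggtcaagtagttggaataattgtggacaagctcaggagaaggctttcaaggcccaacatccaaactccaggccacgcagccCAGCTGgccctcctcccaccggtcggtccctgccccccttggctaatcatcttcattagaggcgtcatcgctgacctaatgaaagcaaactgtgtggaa
Neurod1, chr2:79456637-79456886, minus strand: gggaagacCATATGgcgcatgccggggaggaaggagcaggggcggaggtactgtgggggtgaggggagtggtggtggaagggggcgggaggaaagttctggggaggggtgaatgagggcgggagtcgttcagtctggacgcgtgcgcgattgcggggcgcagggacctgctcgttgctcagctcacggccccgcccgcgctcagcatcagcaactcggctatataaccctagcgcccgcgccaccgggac
The Atoh1 window held no CANNTG, and the Barhl1 window held 1, CAGCTG, which begins 99 bases before the start. The Neurod1 window held 1, CATATG, which begins 242 bases before the RefSeq start. That start lies inside the Neurod1 span given above, which is from GENCODE, so part of this window overlaps the span. A further annotated Barhl1 start, with the window chr2:28912496-28912745, also has 1 CAGCTG, which begins 15 bases before it. Of 32851 promoter windows of the same length, 66.2% held CANNTG and 4271 held CAGCTG. The other markers given for these cells are Mfap4, an extracellular matrix glycoprotein, at chr11:61485431-61488900, and Sfrp1, a secreted Wnt antagonist, at chr8:23411502-23449632.

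The control members held 1688177 UMIs, with a median of 12049.5 per cell (651 to 24811), and the mutant members 2059689, with a median of 13567 (588 to 34747). Median mitochondrial shares were 3.07% and 2.58%. Xist and Y-linked transcripts read 63 control members as female and 63 as male, and 59 and 75 mutant members. Doublet scores would have removed 7 and 8 members, which were kept as the rule does. The libraries shared 25 of their deposited cell barcodes, none of them a member's.

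Barcodes lay close on both sides of each limit of the rule. Among Atoh1-positive barcodes that passed the Slc1a3 and Gad2 limits, 90 control and 99 mutant cells had 0 UMIs of Mki67 and Top2a and 48 and 57 had 1, while 26 and 46 with 2 UMIs fell just outside. At the Slc1a3 limit, 24 members in each library had 2 UMIs, and 27 and 23 barcodes with 3 fell outside. A Gad2 UMI of 1 kept out 4 and 11 barcodes. Most members were also at the lower edge of Atoh1: 85 control and 93 mutant members had 1 Atoh1 UMI, 22 and 30 had 2, and 31 and 33 had 3 or more.

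Free RNA in the droplets can give an Atoh1 UMI to a cell that does not make it, so the share with such a UMI was read in cells that should lack it. Among Purkinje-marked barcodes, those with at least 3 UMIs each of Calb1 and Car8, 12 of 577 control (2.08%, median depth 35407 UMIs) and 21 of 526 mutant barcodes (3.99%, 36641.5 UMIs) held an Atoh1 UMI. The shares were 2.11% and 3.29% in Gad2-marked barcodes and 2.73% and 4.23% in astroglia-marked barcodes. Premigratory granule neurons set the closest comparison: of low mitotic barcodes within the same limits that held Cntn2, a granule axon adhesion molecule, and Neurod1, 38 of 802 control (4.74%, 3.37% to 6.45%, median depth 11489.5 UMIs) and 51 of 1180 mutant barcodes (4.32%, 3.23% to 5.64%, 12633.5 UMIs) held Atoh1. The mutant share lay close to the background shares of that library, and the control share lay above those of its own. All of these background shares came from cells of greater median depth, so the comparison is uneven. In such Cntn2 and Neurod1 barcodes own and free Atoh1 RNA cannot be told apart. They made up 27.5% (20.3% to 35.8%) of control and 32.7% (25.4% to 40.7%) of mutant members. These and the intervals below are 95% exact Clopper-Pearson intervals for shares, exact Poisson intervals for levels and exact conditional binomial intervals for ratios, and they cover counting error only.

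The granule progenitor label held for most members by its own markers. An Mfap4 or Sfrp1 UMI was present in 117 of 138 control members and 117 of 156 mutant members, and a Barhl1 UMI in 109 and 128. Barhl1 was also seen in 62.0% of control and 63.5% of mutant premigratory cells without Atoh1, so it separates the members from these less. Mfap4 was seen in 20.5% and 19.7% of those cells, and Sfrp1 in 14.4% and 20.5%. None of these 3 genes was seen in 16 control and 14 mutant members. At least 3 UMIs over 13 genes of other classes were found in 21 control members (15.2%, 9.67% to 22.3%) and 37 mutant members (23.7%, 17.3% to 31.2%). The Purkinje genes Calb1, Car8, Pcp2 and Skor2 reached 3 UMIs in 7 and 8 members, with 192 UMIs in a single control cell. Eomes and Lmx1a, genes of unipolar brush cells, reached 3 UMIs in 4 and 13 members, and the inhibitory genes Gad1, Pax2 and Slc32a1 in 5 and 2. Marker lists of fibroblasts, endothelial and mural cells and microglia summed to at most 10.7 counts per 1000000 UMIs (CPM) in control and 11.2 in mutant members, with the microglial genes C1qa, C1qb, C1qc and Mrc1 at 0 in both libraries.

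The members took similar shares of the granule progenitor pool in both libraries. They were 25.2% (21.6% to 29.0%) of the 548 control and 24.6% (21.3% to 28.2%) of the 634 mutant Atoh1-positive barcodes within the limits, a ratio of 0.977 (0.772 to 1.24). Because deeper cells are likelier to show a mitotic UMI, each barcode was also thinned to 5000 UMIs, which left out 1921 control and 1191 mutant kept barcodes. The low mitotic share was then 41.1% (137 of 333) and 42.0% (165 of 393), a ratio of 1.02 (0.809 to 1.29). Members were 1.65% (1.39% to 1.95%) of all kept control and 1.90% (1.62% to 2.22%) of all kept mutant barcodes, a ratio of 1.15 (0.911 to 1.46). A difference between the libraries in either share was not detectable at this number of cells.

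Sorting the Atoh1-positive barcodes by their mitotic UMIs placed the members at the low end of several gradients. The summed level of 40 DNA replication genes was 2693 CPM in control and 2644 in mutant cells with 0 mitotic UMIs, and 5628 and 5139 in cells with 1. Cells with 2 UMIs, just outside the rule, had 5642 and 5248, and cells with more than 10 had 5785 and 5629. Replication transcripts at the upper edge of the members were thus at the level of their neighbours outside. A list of 25 genes of granule neuron commitment ran the other way, from 12088 and 13799 CPM at 0 mitotic UMIs to 8017 and 9191 above 10. The list of synapse and later maturation genes stood at 4784 CPM in control and 7965 in mutant cells with 0 mitotic UMIs, and at 2837 and 3116 in those with 1.

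**Figure D1:**
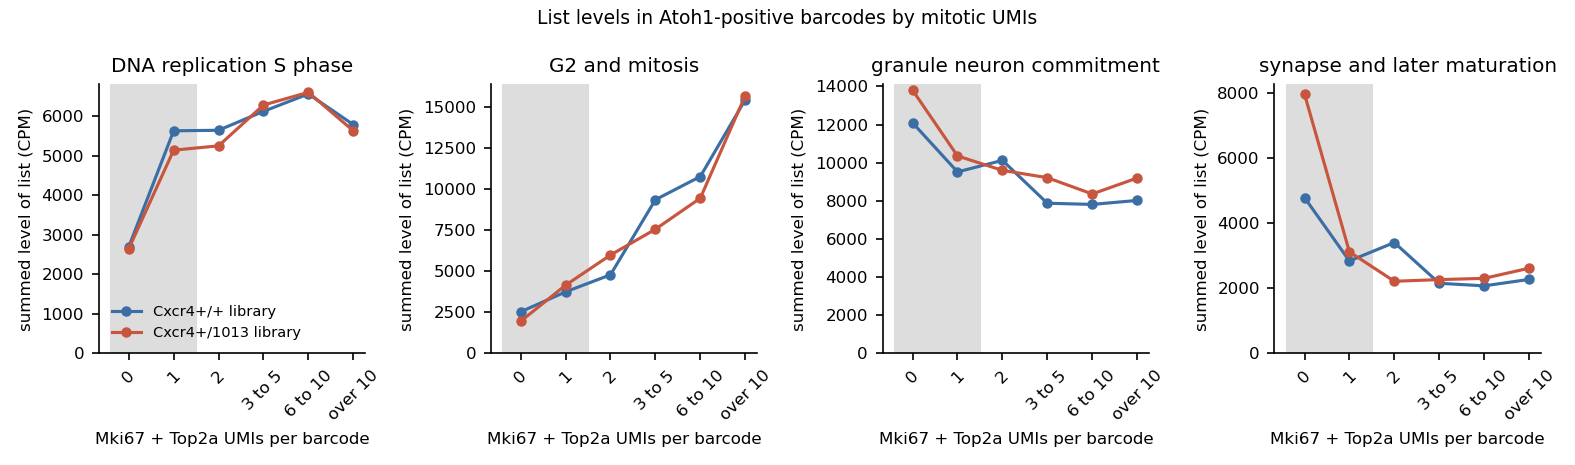
Summed level of 4 gene lists (CPM, linear axis from 0) in Atoh1-positive barcodes grouped by their Mki67 and Top2a UMIs, with blue points for the Cxcr4+/+ and red points for the Cxcr4+/1013 library. Grey marks the members; the replication list is about as high at 1 mitotic UMI (5628 and 5139 CPM) as above 10, and the synapse list is highest at 0 (4784 and 7965 CPM).

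Members differed widely among themselves in replication transcripts. After thinning to 5000 UMIs, which left out 9 control and 13 mutant members, the replication list ranged from 0 to 51 UMIs per cell in 129 control members (quartiles 6, 18 and 28) and from 0 to 55 in 143 mutant members (4, 17 and 29.5). The medians in dividing cells, defined by the same limits with 2 or more mitotic UMIs, were 27 and 28, and in premigratory cells, defined by Cntn2 and Neurod1 without Atoh1 and with at most 1 mitotic UMI, 3 and 3. Between 0 and 9 replication UMIs lay 48 control members (37.2%, 28.9% to 46.2%) and 55 mutant members (38.5%, 30.5% to 47.0%). Between 10 and 19 lay 23 in each library, and at 20 or more lay 58 control and 65 mutant members. These ranges of a per-cell sum were chosen after the values were seen, they are not cell types, and 11 control and 8 mutant cells lay near the lower edge, at 8 to 11 UMIs.

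**Figure D2:**
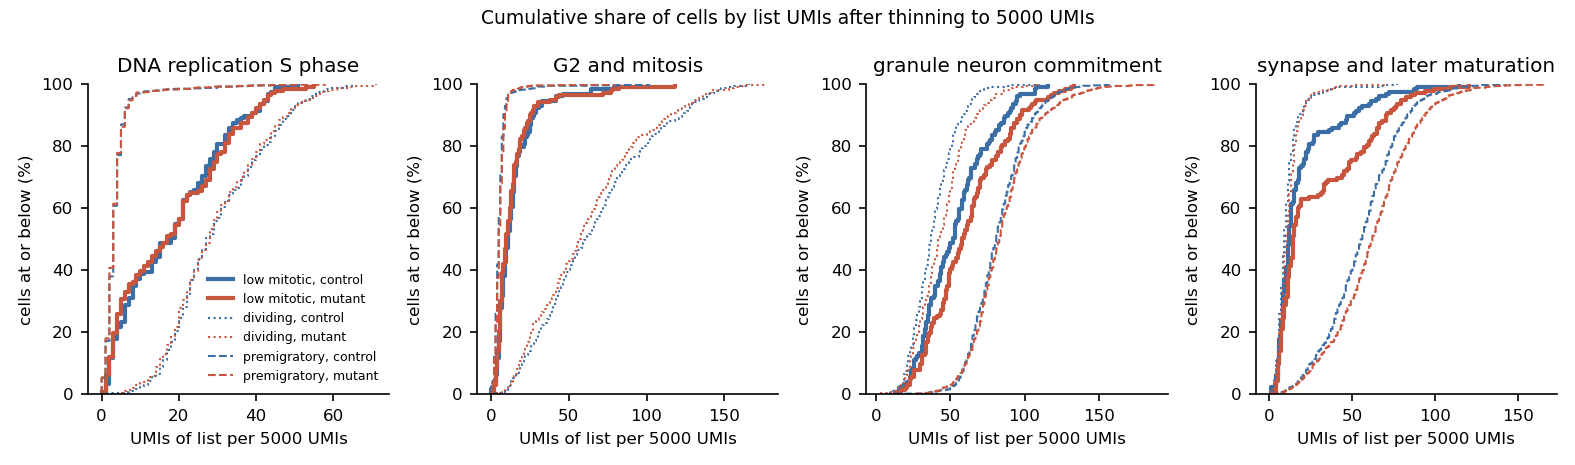
Share of cells (%) at or below each number of list UMIs after thinning every cell to 5000 UMIs, for members (thick), dividing (dotted) and premigratory cells (dashed), in blue for the Cxcr4+/+ and red for the Cxcr4+/1013 library. Member curves for replication lie between the other classes and on top of each other, with medians of 18 and 17 UMIs, while the mutant curve for synapse genes runs lower above 20 UMIs, with an upper quartile of 48.5 against 21.

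Beside the classes on either side, the members held traits of both, as the rule itself arranges. Over the dividing cells, 686 of 8486 genes with at least 50 UMIs were at least 1.5-fold higher in both libraries (8.08%) and 312 lower (3.68%), from which nothing is read because the rule used this contrast. The lower genes were led by Mki67 and included the histone gene Hist1h1b (21.3 and 13.6 CPM in members, 522 and 555 in dividing cells), the spindle factor Tpx2, the ubiquitin enzyme Ube2c, and the mitotic genes Cenpf, Cdk1, Prc1 and Cks2. The higher genes were led by the calcium-binding protein Calb2 (77.6 and 151 CPM against 8.09 and 2.94), the netrin receptor Unc5d (93.0 and 146 against 11.8 and 11.9) and the noncoding RNA Meg3 (314 and 570 against 67.7 and 102). Calb2 was held by 17 of 138 control and 20 of 156 mutant members. Among members with 0 to 9 replication UMIs, 3 control cells held 116 Calb2 UMIs and 10 mutant cells held 299. Over premigratory cells, 1402 genes were higher (16.5%) and 983 lower (11.6%). Those higher, beside Atoh1, included matrix and growth factor genes: Fbln2, Loxl1, Eln (82.9 and 71.9 CPM in members, 1.42 and 2.80 in premigratory cells), Col18a1, Fgfr4 and Pgf. Those lower included the adhesion gene Cntnap4 and Eomes (29.6 and 71.9 CPM against 229 and 265).

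Between genotypes, 690 of the 8486 genes were at least 1.5-fold higher in mutant members (8.13%) and 223 at least 1.5-fold lower (2.63%). Counting intervals lay above 0 on the log2 scale for 1187 genes (14.0%) and below 0 for 700 (8.25%). Over all genes the median log2 ratio was 0.04, and the higher genes were 75.6% of those past 1.5-fold. Scaling by trimmed means in edgeR gave 609 higher and 280 lower genes, a share of 68.5%, and shifted every ratio by -0.04. Leaving ribosomal protein and mitochondrial genes out of the total gave 596 and 292 (67.1%). With counts from 138 and 156 cells of 1 library each, these folds describe the libraries, and differences between animals or preparations cannot be told apart from genotype.

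Genes that mark the granule lineage were mostly higher in mutant members of both sexes pooled, though not in females by the median. Sfrp1 stood at 150 CPM in control and 210 CPM in mutant members, a log2 ratio of 0.48 (0.26 to 0.71), and Barhl1 at 206 and 241 CPM (0.23, 0.03 to 0.43). Mfap4 went the other way, with 347 and 287 CPM (-0.27, -0.44 to -0.10), so that the 3 given markers did not move together. Of 13 other lineage markers, 9 had intervals above 0 and none below, against 14.0% and 8.25% of all genes, and their median was 0.21, with 0.0017 in female and 0.44 in male members. The zinc finger factor Zic2 led them with 41.5 and 102 CPM (1.30, 0.90 to 1.71), in 46 of 138 and 93 of 156 cells, followed by Zic1 with 519 and 710 CPM (0.45) and the homeobox gene Meis1 with 453 and 599 CPM (0.40). The chosen gene Atoh1 itself stood at 146 CPM in both. Zic2 and Sfrp1 were also higher in mutant dividing cells (0.82 and 0.67) and mutant premigratory cells (0.87 and 0.72).

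Sonic hedgehog genes had ratios below 0 for 11 of 13 tested genes, though few stood off 0. Of 16 listed genes 13 passed the minimum of 50 UMIs, with a median log2 ratio of -0.18, 1 interval above 0 and 2 below, beside 14.0% and 8.25% of all genes. The receptor Ptch1 stood at 161 and 142 CPM (-0.18, -0.43 to 0.06), the transducer Smo at 75.8 and 59.2 CPM (-0.36, -0.73 to 0.01) and the activator Gli2 at 102 and 90.3 CPM (-0.18, -0.49 to 0.12). Gli3, mainly a repressor of the pathway, had 33.8 and 16.5 CPM (-1.03, -1.69 to -0.39), and the cyclin Ccnd2 427 and 378 CPM (-0.18, -0.32 to -0.03). The co-receptor Gas1 was the exception at 34.4 and 75.7 CPM (1.14, 0.70 to 1.60), in 38 and 75 cells, and it was higher in mutant dividing cells (1.06) and premigratory cells (0.81) too. In dividing cells the list's median was 0.14.

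Replication and mitotic genes were slightly lower in mutant members by their sums. The replication list had 38 of 40 genes tested, a median of -0.08, 1 interval above 0 (E2f1, 37.9 and 60.2 CPM) and 4 below, among them Pcna, the sliding clamp (284 and 226 CPM), and Fen1, a flap nuclease (62.2 and 41.3 CPM), beside 14.0% and 8.25% of all genes. Its sum had a ratio of 0.944 (0.913 to 0.977). The list of G2 and mitosis genes, which overlaps in function with the genes of the rule, had 27 of 50 tested, a median of -0.19, 2 intervals above 0, 5 below and a ratio of sums of 0.931 (0.896 to 0.967). The median of the G2 and mitosis list ran from -0.58 to 0.69 over the alternatives.

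Among 14 genes of cell cycle exit, with a median of 0.02, the Cdk inhibitor Cdkn1c stood apart by its summed level. It lies at chr7:143458339-143461050 and had 68 UMIs in 39 control members and 243 UMIs in 54 mutant members, that is 40.3 and 118 CPM, a log2 ratio of 1.55 (1.16 to 1.96). The shares of members that held it differed less. After thinning they were 14.0% (8.48% to 21.2%) in control and 16.8% (11.1% to 23.9%) in mutant members, with overlapping intervals. The exit list summed to at most 40 UMIs in a control and 125 UMIs in a mutant member. The part of single cells in the Cdkn1c ratio was not tested. The Cdkn1c ratio was 0.23 in dividing cells (23.4 and 27.3 CPM) and -0.31 in premigratory cells. The difference lay in cells with 0 mitotic UMIs, at 53.1 and 177 CPM, and not in those with 1, at 18.9 and 20.7 CPM. By Atoh1 it lay in members with a single UMI, at 55.2 and 184 CPM, where free Atoh1 RNA cannot be told apart, and members with 3 or more had 22.8 and 24.2 CPM. The antiproliferative gene Btg2 had 71.1 and 101 CPM (0.51, 0.18 to 0.85), whereas the related inhibitor Cdkn1b had 116 and 123 CPM (0.09, -0.19 to 0.36), and Cdk4 had 467 and 363 CPM (-0.36, -0.51 to -0.22).

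Commitment genes of granule neurons were higher in mutant members across most of the list. Of 24 tested genes, 21 had ratios above 0, 17 had intervals above 0 and 2 below, against 14.0% and 8.25% of all genes, and the median was 0.33 beside 0.04 for all genes. Neurod1 had 421 CPM in control and 534 CPM in mutant members (0.34, 0.21 to 0.48). The microtubule genes Dcx (397 and 632 CPM, 0.67) and Mapt (184 and 303 CPM, 0.72) and the adhesion molecules Nrcam (161 and 306 CPM, 0.93, 0.72 to 1.14) and Cntn1 (105 and 199 CPM, 0.91) led the list with Plxna2, a semaphorin receptor (29.6 and 56.3 CPM, 0.93). Cntn2 had 49.2 and 63.6 CPM (0.37, -0.04 to 0.79), and the 2 genes below were Hes6 (107 and 81.6 CPM, -0.39) and the netrin receptor Dcc (4371 and 4051 CPM, -0.11). The medians of the list were 0.14 in dividing and 0.08 in premigratory cells.

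Synapse and maturation genes had a wider separation than the commitment list. All 16 tested genes had ratios above 0, 13 had intervals above 0 against 14.0% of all genes, and the median was 0.50. The glutamate receptor subunit Grin2b had 87.7 and 220 CPM (1.33, 1.06 to 1.60) in 42 and 57 cells, the adhesion gene Nlgn1 140 and 284 CPM (1.01) and the presynaptic adhesion gene Nrxn3 907 and 1642 CPM (0.86, 0.77 to 0.94) in 69 and 92 cells. Slc17a6, a vesicular glutamate transporter, had 13 UMIs in 8 control and 59 in 24 mutant members (1.90, 1.01 to 2.89), and it also counts among the genes of other classes used above. Marker lists of other glutamatergic cells were higher too. The unipolar brush cell and rhombic lip list, which shares Calb2 with the synapse list, summed to 236 and 400 CPM. Its median was 0.97 over 5 tested genes, and it reached 3 UMIs in 23 and 43 members. The list of nuclear or midbrain neurons, which shares Slc17a6, summed to 126 and 184 CPM, with a median of 0.71 over 3 tested genes, and reached 3 UMIs in 21 and 32 members. Without members that held 3 or more UMIs of other classes, an alternative added after the data were seen, the synapse list's median was 0.40. The part of these other cell types in the synapse values was otherwise not tested. The medians of the synapse list were 0.18 in dividing and 0.11 in premigratory cells. In members with a single Atoh1 UMI the list summed to 5264 and 8602 CPM, in those with 2 to 1984 and 2250 CPM, and in those with 3 or more to 2549 and 3020 CPM. Nrxn3 was higher in the mutant library in each of these, with 1484 and 2475, 37.1 and 360, and 101 and 560 CPM. With 2 or more Atoh1 UMIs required, 53 control and 63 mutant members remained and the list's median was 0.06.

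**Figure D3:**
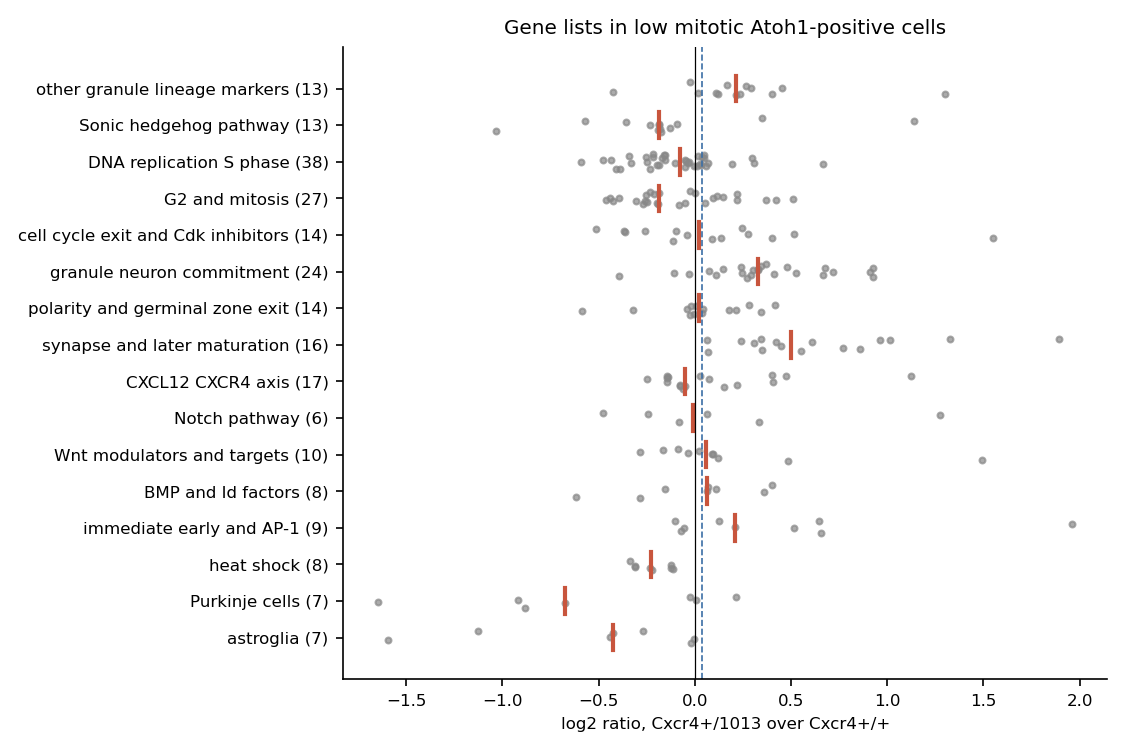
Log2 ratio of each tested gene (grey points) in members, Cxcr4+/1013 over Cxcr4+/+, for 16 gene lists with the number of tested genes in brackets; red bars mark list medians, and the dashed line the median of all genes, 0.04. Synapse genes lie entirely above 0 with a median of 0.50, and commitment genes have a median of 0.33.

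The balance of cyclin D and of Neurod1 or Cntn2 transcripts per cell differed between the libraries in thinned data. For each share below, the intervals of both libraries overlapped. A cyclin D (Ccnd1 or Ccnd2) UMI without Neurod1 or Cntn2 was found in 37.2% (28.9% to 46.2%) of control and 27.3% (20.2% to 35.3%) of mutant members. Neurod1 or Cntn2 without a cyclin D was found in 15 control members (11.6%, 6.66% to 18.5%) and 33 mutant members (23.1%, 16.4% to 30.9%). Both together were seen in 49.6% and 49.7%. Such cells are not thereby between stages, since Neurod1 was common in dividing cells as well. After thinning it was held by 69.4% of control and 71.7% of mutant dividing cells, and by 58.9% and 72.0% of members. Cntn2 was held by 6.85% and 9.49% of dividing cells.

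Members with few replication transcripts held most of the synapse transcripts, and progenitor markers differed most between the libraries there. In the 48 control and 55 mutant members with 0 to 9 replication UMIs, the synapse list summed to 7126 and 11740 CPM (log2 ratio 0.72, 0.67 to 0.77) and the hedgehog list to 1158 and 636 CPM (-0.87, -1.04 to -0.70). Progenitor markers were lower there in the mutant library: Mfap4 had 288 and 97.7 CPM (-1.56, -1.97 to -1.16) in 30 and 15 cells, Sfrp1 103 and 40.1 CPM (-1.36), Barhl1 208 and 122 CPM (-0.77) and Ccnd1 171 and 69.6 CPM (-1.30). Neurod1 had 690 and 942 CPM (0.45, 0.27 to 0.63) and Cdkn1c 69.9 and 286 CPM (2.03, 1.55 to 2.55) in 17 and 31 cells. Of these members, 14 control and 5 mutant cells had 2 or more Atoh1 UMIs, 24 and 36 held both Cntn2 and Neurod1, and 13 and 22 held at least 3 UMIs of other classes, with medians of 1 and 2. The part of free Atoh1 RNA and of other cell types in these differences was not tested.

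In the middle range, with 23 cells in each library, the synapse list summed to 2263 and 3732 CPM (0.72, 0.58 to 0.86), the hedgehog list to 2011 and 2108 CPM (0.07) and Mfap4 to 396 and 448 CPM (0.18, -0.19 to 0.55). Of the synapse list, Nrxn3 alone had 155 and 719 CPM, from 43 and 236 UMIs in 11 and 10 cells. Sfrp1 (159 and 326 CPM, 1.04, 0.52 to 1.58), Barhl1 (249 and 362 CPM, 0.54, 0.10 to 0.99) and Gas1 (39.6 and 155 CPM, 1.97, 1.01 to 3.06) were higher in the mutant library there.

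Members with 20 or more replication UMIs, 58 control and 65 mutant cells, differed less in these lists. Mfap4 stood at 380 CPM in both, Ccnd1 at 611 and 664 CPM (0.12, -0.05 to 0.29), the hedgehog list at 2325 and 2401 CPM (0.05, -0.04 to 0.14) and the commitment list at 9598 and 10045 CPM (0.07, 0.02 to 0.11). All 58 and all 65 of these cells held an Mfap4 or Sfrp1 UMI. Higher in the mutant library were Sfrp1 (188 and 307 CPM, 0.71, 0.42 to 1.01), Barhl1 (193 and 295 CPM, 0.62, 0.33 to 0.91), Gas1 (40.5 and 101 CPM, 1.31) and Zic2 (22.8 and 70.2 CPM, 1.62, 0.85 to 2.46). Sfrp1 and Barhl1 thus had opposite signs in the low and high replication ranges. Whether the ranges differ beyond the spread between animals was not tested.

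Cxcr4 itself, at chr1:128588199-128592293, had 65 UMIs in 43 control members and 88 UMIs in 57 mutant members, 38.5 and 42.7 CPM, a log2 ratio of 0.15 (-0.33 to 0.64). By replication range it had 21 UMIs in 13 control and 2 UMIs in 2 mutant members at 0 to 9 (34.9 and 2.68 CPM, -3.71, -6.84 to -1.67), and 32 and 60 UMIs at 20 or more (40.5 and 62.8 CPM, 0.63, -0.01 to 1.30). Of 17 tested genes around the receptor, 4 had intervals above 0 and none below, beside 14.0% and 8.25% of all genes, with a median of -0.05. These were the ligand Cxcl12 (17.2 and 37.4 CPM, 1.12, in 16 and 36 cells), the G protein subunits Gnai1 (0.47) and Gnb1 (0.22), and the small GTPase Rac1 (141 and 187 CPM, 0.41). The kinases and arrestin that act on the receptor's tail, Grk2, Grk3, Grk5, Grk6 and Arrb2, had intervals that crossed 0.

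The polarity, Wnt and Notch lists had medians near that of all genes. None of 14 tested polarity genes that guide exit from the germinal zone, such as Siah1a, Pard3 and Zeb1, had an interval off 0, and their median was 0.02. Wnt genes had a median of 0.06, with Frat2, a regulator of the kinase GSK3, at 9.48 and 26.7 CPM (1.49, 0.67 to 2.40), and Notch genes a median of -0.01, with Dll3 at 11.8 and 28.6 CPM (1.27). Of 8 heat shock genes, 5 had intervals below 0, against 8.25% of all genes, and none above, led by Hspa8 (1258 and 1014 CPM, -0.31). Their median was -0.23, beside -0.15 in dividing and -0.24 in premigratory cells. Of 80 cytosolic ribosomal protein genes, 64 had intervals below 0 and 9 above, and of 13 mitochondrial transcripts 8 below and 1 above. Over all genes these shares were 8.25% and 14.0%. Ribosomal protein and mitochondrial genes had medians of -0.31 and -0.18 in members. Their part in other values was not tested. In the immediate early list Jund, an AP-1 factor, had 79.4 and 309 CPM (1.96, 1.69 to 2.24), in 78 and 141 cells, while Fos had 75.2 and 72.3 CPM (-0.06) and Jun 172 and 160 CPM (-0.10). Jund was as much higher in mutant dividing (1.80) and premigratory cells (1.70), and in all kept barcodes it had 93.9 and 311 CPM.

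The 10 higher named genes were led by Grp, Hs3st4 and Jund. Among the others were Lrrc4c, a netrin-G ligand (165 and 456 CPM, 1.47, 1.28 to 1.67, in 54 and 70 cells), Lingo2 (77.6 and 230 CPM, 1.57, in 29 and 41 cells), the ephrin receptor Ephb1 (43.2 and 132 CPM, 1.61, in 35 and 67 cells), the ligand Slit3 (13.6 and 65.5 CPM, 2.27, in 9 and 18 cells) and the potassium channel subunit Kcnmb2 (11.3 and 43.7 CPM, 1.96). The sulfotransferase gene Hs3st4 had 5 UMIs in 3 control and 68 in 14 mutant cells (3.48, 2.19 to 5.15). The peptide gene Grp had 9 UMIs in 1 control cell and 108 in 8 mutant cells, of which a single cell held 55.6%. Tmem132b (2.88) and Rtl4 (2.35) completed the set. Without members that held 3 or more UMIs of other classes, an alternative added after the data were seen, the ratios were 0.86 for Slit3, 0.54 for Rtl4 and 1.66 for Tmem132b. With the rule applied after thinning, Rtl4 had 0.16 and Tmem132b 0.67, and with each cell weighted equally Slit3 had 0.64, Kcnmb2 0.79 and Lingo2 0.68. In premigratory cells the ratios were -0.14 for Lingo2, 0.09 for Lrrc4c, 0.20 for Ephb1, -0.05 for Slit3 and 0.16 for Hs3st4, at levels of 354 to 390 CPM for Lingo2 and 870 to 925 CPM for Lrrc4c, above those in members. With 2 or more Atoh1 UMIs required, Lingo2 and Lrrc4c were lower in mutant members (-1.84 and -0.53).

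The genes lower in mutant members included genes of glia and of Purkinje cells. Vim, an intermediate filament of progenitors and glia, had 292 and 172 CPM (-0.76, -0.97 to -0.56) in 114 and 104 cells. Apoe, a lipid carrier (40.3 and 18.4 CPM, -1.13), Sparcl1, an astroglial matrix protein (27.8 and 9.22 CPM, -1.59) and Lgals1, a galectin (29.6 and 13.1 CPM, -1.18) were spread thinly over cells. Of 7 tested astroglial genes outside the rule, 5 had intervals below 0, against 8.25% of all genes. The list summed to at most 28 UMIs in a control and 65 in a mutant member. In all kept barcodes, Apoe had 461 and 291 CPM and Sparcl1 327 and 206 CPM. The part of free RNA in these values was not tested. Calb1, the Purkinje calcium buffer, had 80.6 and 25.7 CPM (-1.65), but 70.6% of its control UMIs came from 1 cell, as did 56.7% of those of Pcp4 (190 and 101 CPM, -0.92). Without members that held 3 or more UMIs of other classes, the ratios were 0.06 for Calb1 and 0.09 for Pcp4. Calb1 is itself 1 of the 13 genes of that filter, which leaves no member with 3 or more Calb1 UMIs, so nothing is read from its ratio there. Pcp4 is not among them. The channel regulator Kcnip4 (61.6 and 12.1 CPM, -2.34) and Il1rapl2 (25.5 and 5.83 CPM, -2.13) were held by 18 and 9 and by 8 and 4 cells. Ifngr1, the interferon gamma receptor (-1.48), and Gpn1 (-1.04) were the remaining genes.

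**Figure D4:**
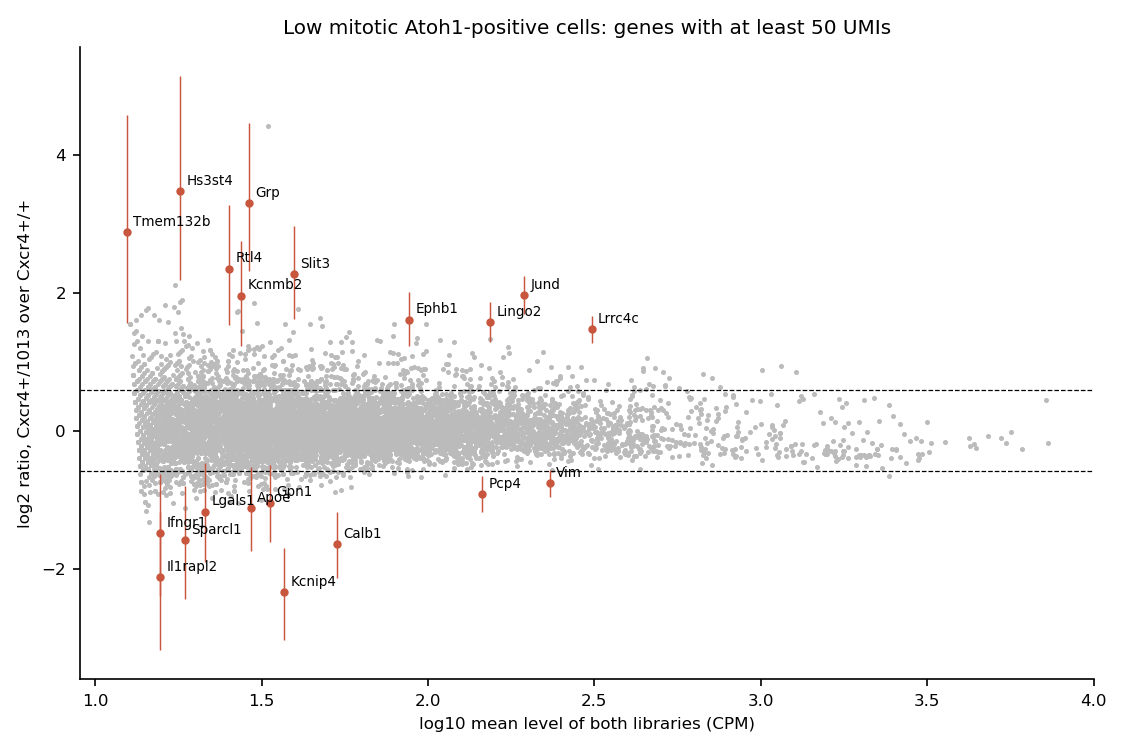
Log2 ratio, Cxcr4+/1013 over Cxcr4+/+, against the log10 mean level (CPM) of each gene with at least 50 UMIs in members; red points are the 10 higher and 10 lower named genes with 95% counting intervals, dashed lines mark 1.5-fold, and predicted models are not named. Lrrc4c, Lingo2, Ephb1 and Jund stand clear at higher levels, while Grp, Hs3st4 and Tmem132b have wide intervals.

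The 2 neuronal lists kept a median above 0 under every alternative tried, from 0.21 to 0.36 for commitment and from 0.06 to 0.56 for synapse genes. With the members that held an Mfap4 or Sfrp1 UMI, also added after the data were seen, 117 cells remained in each library and the medians were 0.21 and 0.39. Female and male members gave 0.29 and 0.34 for commitment and 0.56 and 0.50 for synapse genes. The medians of the replication list and of the list of G2 and mitosis genes took both signs.

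**Figure D5:**
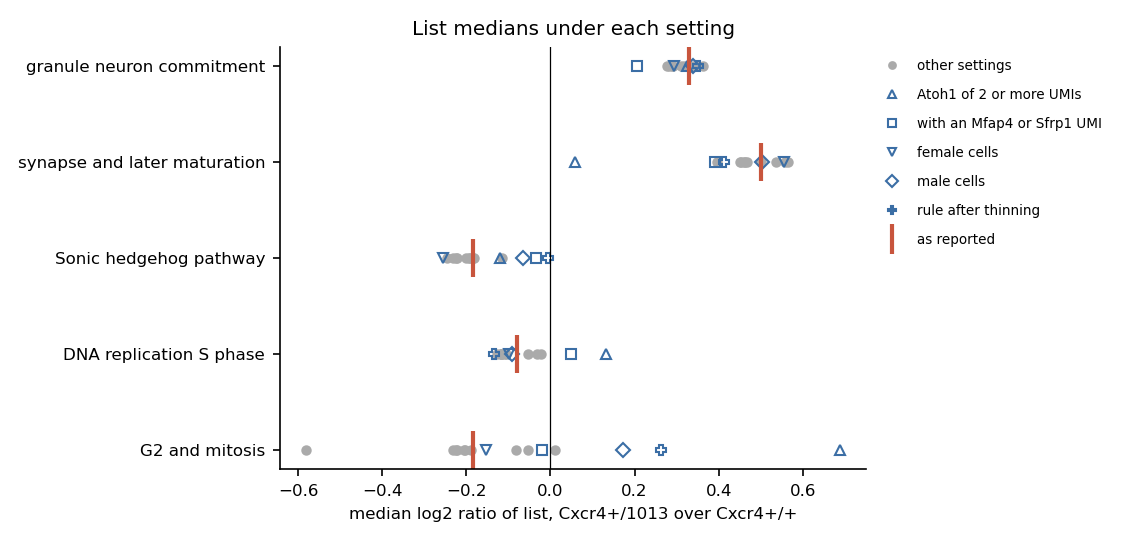
Median log2 ratio of 5 gene lists in members, Cxcr4+/1013 over Cxcr4+/+, as reported (red bars) and under each alternative (grey points, with 5 alternatives as blue symbols). Commitment and synapse medians stay above 0, between 0.21 and 0.36 and between 0.06 and 0.56, and hedgehog medians lie between -0.25 and -0.005.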

How the data were processed

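Single cells from 1 Cxcr4+/+ and 1 Cxcr4+/1013 library of mouse cerebellum at postnatal day 1 were compared. Tools named for the reads were bcl2fastq 2.20.0.4222 and Cell Ranger 7.2, with mm10 as the genome, per the submitters' processing notes. The annotation release and the handling of intronic reads are not given in the sources used here. Per the file headers and values, the authors deposited raw UMI counts per gene and barcode for 32285 genes, with no normalisation. No annotation of cells was used.

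UMIs were summed over members in each library and scaled to counts per 1000000 (CPM) of their total. Genes reaching 50 UMIs in the 2 libraries together were compared, and 1.5-fold served as a description by size. Intervals at the 95% level cover counting error only. Cells were thinned to 5000 UMIs (8000 as an alternative) where shares or per-cell sums were compared. Doublets were scored with Scrublet in scanpy 1.11.5 and kept, as the rule does; removal at 0.8% per 1000 barcodes was an alternative. Scaling by edgeR 4.0.16 and DESeq2 1.42.0 size factors was tried as an alternative. Alternatives also covered the barcode filter (at least 1000 genes and at most 5% mitochondrial UMIs), the limits on Atoh1 and on Mki67 and Top2a, the sexes, the UMI minimum, the cell weighting and the genes in the total. Restricting members to those with an Mfap4 or Sfrp1 UMI, or with fewer than 3 UMIs over 13 genes of other classes, was added after seeing the data. The computation was tested on simulated data.

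The named genes were the 10 higher and 10 lower whose ratio interval lay farthest from 1 by its nearer bound, and the 8 per direction for each neighbouring class, leaving out predicted models and haemoglobin, ribosomal protein, mitochondrial and sex-linked genes, together with genes of the lists. Some named genes are not reported here. The members and lists were chosen with earlier results of these data known, and the 13 genes of other classes and the replication ranges after values were seen. Comparisons with dividing and premigratory cells share the members. Gene positions are from GENCODE vM21 on GRCm38.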

Additional observations from a re-analysis of the deposited data

Results flagged for a closer look

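The libraries' ratio of member shares among kept barcodes lay on opposite sides of 1 in the sexes, at 1.04 in female and 0.965 in male cells. Both counting intervals (0.718 to 1.51 and 0.681 to 1.37) include 1, and the ratio over all cells was 1.15. Male cells were 42.6% of the sexed kept barcodes for control and 50.4% for mutant mice. The median log2 ratio of G2 and mitosis genes in members was -0.15 in female and 0.17 in male cells. Neither difference between the sexes was tested, since 1 library per genotype gives no replicate within a sex.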

How the results depend on the processing

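Of the alternatives to member shares and gene counts, 43 stayed near the reported value and 5 moved. For the 5 leading list medians, 64 stayed near and 11 moved. For gene counts near was loose, and took in 155 to 331 lower genes against 223 reported. The gene sets changed more. Applying the rule after thinning kept 307 of 690 higher and 38 of 223 lower genes. Female cells kept 288 and 39, and 2 or more Atoh1 UMIs kept 140 and 43, with fewer genes tested in both. Removing the highest doublet scores kept 581 and 172. Genes higher and lower numbered 212 and 15 with at least 200 UMIs and 1622 and 823 with at least 10, and 373 were higher with 2 or more Atoh1 UMIs required. With that Atoh1 limit the medians were 0.13 for replication, 0.69 for G2 and mitosis and 0.059 for synapse genes. With the rule applied after thinning, hedgehog genes had -0.005 and G2 and mitosis genes 0.26. In male cells these were -0.066 and 0.17, and with 0 mitotic UMIs the latter had -0.58. With an Mfap4 or Sfrp1 UMI the medians were -0.034 for hedgehog, 0.050 for replication and 0.21 for commitment genes. Among named genes 185 values kept their size, 57 moved and 9 changed sign: Lingo2 (-1.84) and Lrrc4c (-0.53) with 2 or more Atoh1 UMIs, Il1rapl2 (0.61), Calb1 (0.98) and Pcp4 (1.25) after thinning, Calb1 (0.063) and Pcp4 (0.093) without members holding genes of other classes, and Pcp4 with the stricter barcode filter (0.11) and with 2 or more Atoh1 UMIs (0.39). Calb1 is itself among the genes of other classes that set that filter. The cause of the sign changes was not tested. Few cells and 1 library per genotype limit every value. No paired analysis was possible because there was 1 library per genotype and the labels give no replicate numbers.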
